A study of Mus musculus with 8 samples.

Results

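Transcript levels after 24 h of c-Src induction were set against those of uninduced cells in mouse embryonic fibroblasts (MEFs) that lack Csk. The cells are labelled CskKO (Csk-/-) and had been transfected with pBKT2-c-Src, a vector whose c-Src is switched on by doxycycline (1 µg/ml). The comparison takes in 2 arrays at 0 h and 2 arrays at 24 h, which are 4 of the 8 arrays of the series. Arrays at 6 h and 72 h served to estimate the spread and to place a 24 h level in time. All 4 arrays hold cells with the Csk deletion and the vector, so the 0 h arrays are uninduced cells of the same genotype and not wild-type fibroblasts. No arrays of cells without the vector, or of cells given doxycycline alone, belong to the 8 arrays. The labels do not say how many clones the transfected line holds. By the design text the samples were run in duplicate, with no word on separate cultures, so the spread behind the p-values is one between arrays and may be technical. Doxycycline, time in culture and the row of the slide all changed along with c-Src, and the effects of these factors and of c-Src cannot be told apart.

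Src is a tyrosine kinase anchored at the inner face of the plasma membrane, where integrins and growth factor receptors pass signals to it. Csk phosphorylates the tail of Src and holds it in a closed, inactive form, so that Src made in cells without Csk stays largely in its active form. Active Src phosphorylates focal adhesion proteins and feeds into the ERK, PI3K and STAT3 pathways, and fibroblasts transformed by Src lose contact with their matrix and digest it. The comparison asks which transcripts stood higher or lower after a full day of that activity.

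Levels are given as relative signal, which is the processed signal of a probe divided by the 75th percentile of its array, so that a relative signal of 1 lies at that percentile. Differences are 24 h minus 0 h on the log2 scale with the standard error of a limma fit. Adjusted p is that fit's value after Benjamini-Hochberg adjustment over all 27881 probes tested, read at the gene's brightest tested probe. Levels of different probes cannot be compared with each other. A gene was called where its adjusted p was under 0.05, and n was 2 arrays per time throughout. The number of arrays limits the precision, with a median standard error of 0.08.

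The induced gene was checked first. Src had relative signals of 0.393 and 0.437 at 0 h and 9.81 and 9.92 at 24 h, and the difference was 4.57 ± 0.06, adjusted p = 5.57e-06. Both 24 h arrays lay far above both 0 h arrays. The array has 1 Src probe, and the labels do not give the species of the vector's insert, so transcripts of the vector and of the cells' own gene were not separated. On none of the 8 arrays did the Csk probe stand well above background. Its relative signals were 0.00639 and 0.00795 at 0 h and 0.00602 and 0.00798 at 24 h. The labels do not name the deleted exons, and whether the probe lies within them was not tested. Fer, a cytoplasmic tyrosine kinase with an SH2 domain, had relative signals of 2.34 and 2.52 at 0 h and 3.82 and 4.55 at 24 h on its brightest probe, a difference of 0.78 ± 0.09, adjusted p = 0.00196. The other Fer probes rose by 0.73 ± 0.12 and 0.59 ± 0.08, so all 3 probes moved the same way.

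The labelled cell type was set against marker lists. Of 14 fibroblast markers, 13 were well above background on at least 1 of the 4 arrays, the exception being Thy1, and their summed relative signal was 970 and 1040 at 0 h and 872 and 907 at 24 h. Prrx1 was so on 1 of the 0 h arrays alone, and Fap on 1 array of each time. Of the 11 fibroblast markers tested, 6 were lower (54.5%, against 20.3% over all genes tested) and 2 higher, with a median of -0.29. Under median scaling 2 were lower. Epithelial markers summed to 3.89 and 4.66 at 0 h and 4.88 and 5.64 at 24 h, with Cdh1, Epcam, Cldn3, Cldn4 and Ovol1 not above background on any of the 4 arrays. Macrophage and blood markers summed to 17.4 and 19 at 0 h and 17.1 and 18.2 at 24 h, with Ptprc, Adgre1, Spi1, Lyz2 and Fcgr1 not above background. Endothelial markers summed to between 2.45 and 2.56 on all 4 arrays, with Cdh5, Emcn, Tie1, Cldn5, Erg and Sox17 not above background. The blood and endothelial sums at 24 h lay within or near the range of those at 0 h. Skeletal muscle markers went from 0.866 and 0.844 to 1.74 and 1.8, but Myod1, Myog, Myf5 and Pax7 were not above background and most of the sum was Acta1. Adipocyte markers went from 0.93 and 0.939 to 1.78 and 2.25, with Adipoq, Plin1, Cidec and Lep not above background and most of the 24 h sum was Fabp4. In RNA from whole cultures, fewer cells of a type and less RNA per cell cannot be told apart.

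After 24 h the genes that stood highest above their 0 h level encoded secreted proliferins, osteopontin, stromelysins and transcription factors of the growth factor response. Genes of ribosome assembly, amino acid supply and tRNA charging were higher in large shares of their lists. Genes of collagen chains, complement, interferon response, Wnt and TGF-beta signalling were lower in large shares of theirs. In numbers, 20421 genes were tested, of which 4343 (21.3%) were higher and 4137 (20.3%) lower. A difference of at least 2-fold was found for 367 higher genes (1.8% of those tested) and 616 lower genes (3.02%), and one of at least 4-fold for 106 higher and 102 lower genes. Among the genes tested, 7605 carry only a clone or locus name and are counted but not named. The median difference over all genes was -0.02. Scaling each array to its median instead shifted that median up by 0.15 and gave 5864 higher and 2019 lower genes, so 74.4% of calls were then higher against 51.2% as reported. Scaling to the 75th percentile of spots above background on all arrays gave 40.7%.

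**Figure D1:**
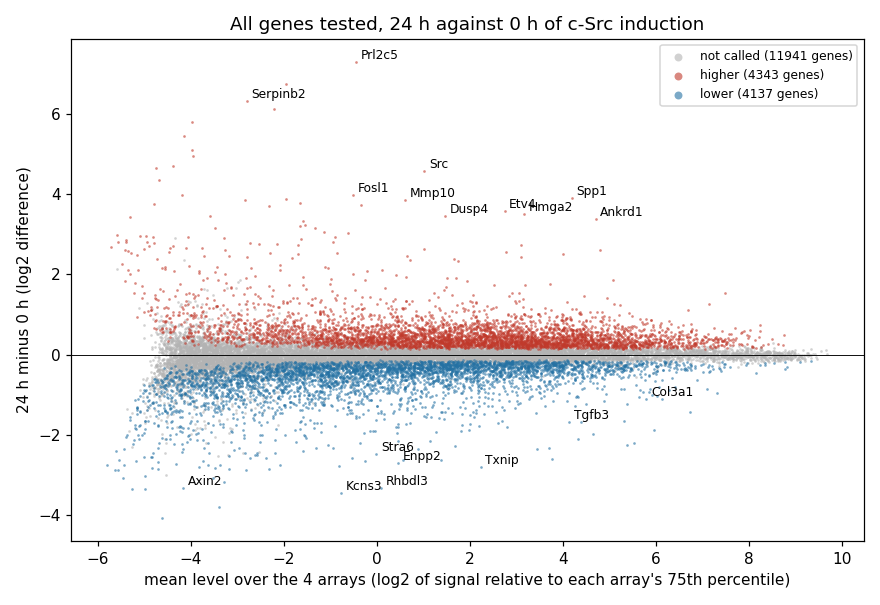
Each point is 1 of the 20421 genes tested, with the mean log2 relative signal over the 4 arrays on the x axis and the 24 h minus 0 h log2 difference on the y axis; red genes were called higher (4343), blue genes lower (4137) and grey genes were not called (11941). Prl2c5 lies highest at 7.31, and the widest scatter of grey points is among dim genes at the left.

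Among genes measured on both arrays of both times, the 20 largest rises ran from 2.77 to 7.31. Prl2c5, a secreted proliferin of the prolactin family, is read by a probe that the array's annotation places at chromosome 13, 13283943 to 13284002 of mm9, and had relative signals of 0.0533 and 0.0628 at 0 h and 9.24 and 9.10 at 24 h, a difference of 7.31 ± 0.08, adjusted p = 2.76e-06. Spp1, which encodes the secreted integrin ligand osteopontin (probe at chromosome 5, 104868502 to 104868561), had 5.01 and 4.46 at 0 h and 70.2 and 70.7 at 24 h, a difference of 3.90 ± 0.07, adjusted p = 1.46e-05. In both genes the 24 h arrays lay close together and far above the 0 h arrays. Hmga2, an architectural chromatin protein of embryonic and transformed cells, had 2.55 and 2.76 at 0 h and 28.7 and 32.1 at 24 h (3.52 ± 0.07, adjusted p = 2.31e-05). Acsbg1, an acyl-CoA synthetase, had 0.0817 and 0.0914 at 0 h and 1.05 and 1.32 at 24 h (3.77 ± 0.12, adjusted p = 5.33e-05). Upp1, which cleaves uridine to uracil and ribose phosphate, had 0.140 and 0.100 at 0 h and 0.796 and 0.954 at 24 h (2.88 ± 0.17, adjusted p = 0.000243). For these 3 genes too the lowest 24 h array lay above the highest 0 h array. Tmem171 rose by 3.05 ± 0.16, Ndst3, which modifies heparan sulfate, by 2.78 ± 0.14, and the GTPase-activating gene Arhgap6 by 2.77 ± 0.13, although a second Arhgap6 probe differed by 0.41. Speer2 and Speer1, of a family known from sperm-forming cells, rose by 3.32 ± 0.13 and 2.93 ± 0.09. Proliferins and Speer genes have near-identical copies, and which copy a probe reads is uncertain. The remaining large rises, Src, Fosl1, Mmp10, Etv4, Dusp4, Ankrd1, Sox9, Mmp3, Egr2 and Sprr2e, are given with their groups. With normexp background correction, whose offset shrinks the differences of dim probes, the log2 differences were 1.66 for Arhgap6, 5.38 for Prl2c5, 2.35 for Acsbg1, 1.93 for Upp1, 2.10 for Tmem171, 1.42 for Ndst3, 2.15 for Speer2 and 2.15 for Speer1.

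**Figure D2:**
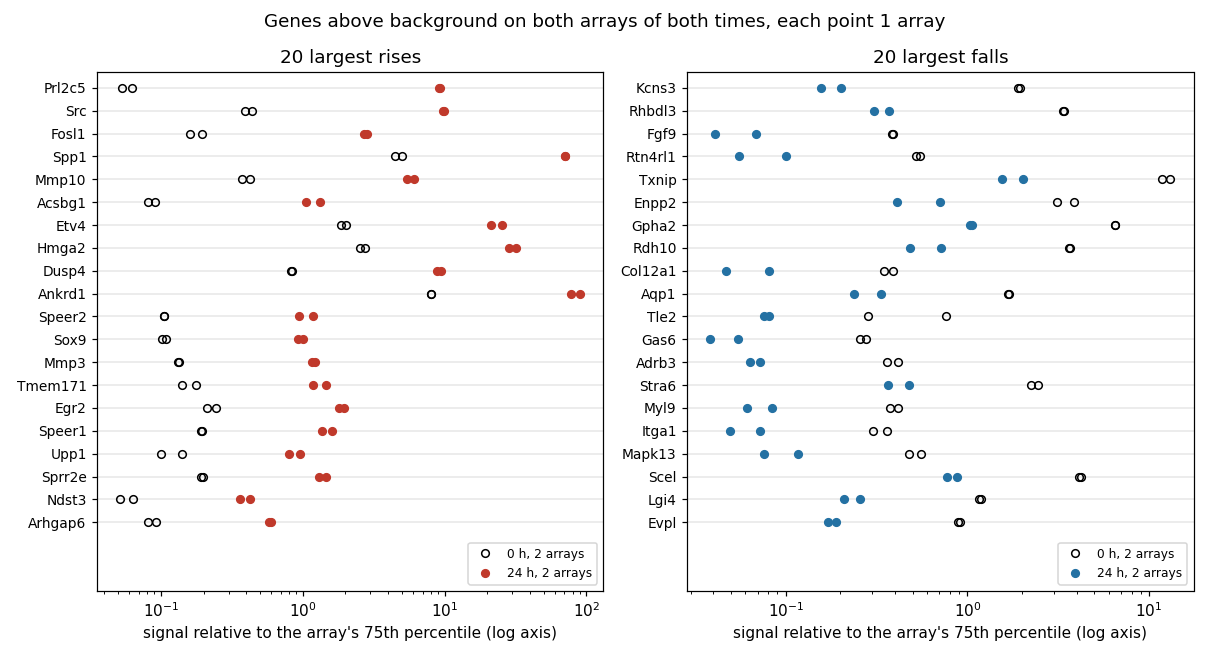
Relative signal on a log axis of the 20 largest rises (left) and 20 largest falls (right) among genes above background on both arrays of both times, with open circles for the 2 arrays at 0 h and filled circles for the 2 arrays at 24 h. No gene's circles of one time overlap those of the other, and the 2 arrays of a time lie farther apart for the dim falls, such as Fgf9 and Rtn4rl1, and for Tle2 at 0 h.

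The 20 largest falls ran from -3.45 to -2.32. Kcns3, a modifier subunit of voltage-gated potassium channels (probe at chromosome 12, 11097716 to 11097775 of mm9), had relative signals of 1.90 and 1.96 at 0 h and 0.200 and 0.157 at 24 h (-3.45 ± 0.35, adjusted p = 0.0011). Rhbdl3, a rhomboid family membrane protein, had 3.40 and 3.34 at 0 h and 0.370 and 0.307 at 24 h (-3.32 ± 0.11, adjusted p = 5.77e-05). Gpha2, a glycoprotein hormone alpha subunit, had 6.46 and 6.51 at 0 h and 1.06 and 1.03 at 24 h (-2.64 ± 0.06, adjusted p = 2.82e-05). These 3 genes lost most of their 0 h signal on both arrays. Enpp2, which makes the signalling lipid lysophosphatidic acid, had 3.12 and 3.87 at 0 h and 0.703 and 0.411 at 24 h (-2.69 ± 0.25, adjusted p = 0.000868), with the 24 h arrays further apart than those of 0 h. The water channel gene Aqp1 had 1.69 and 1.67 at 0 h and 0.334 and 0.239 at 24 h (-2.58 ± 0.15, adjusted p = 0.000243). Scel, which encodes sciellin, and Evpl, which encodes envoplakin, both of the cornified envelope of skin, fell by 2.34 ± 0.07 and 2.32 ± 0.07. The remaining falls included the Nogo receptor homologue Rtn4rl1 (-2.85 ± 0.41), the beta-adrenergic receptor gene Adrb3 (-2.51 ± 0.11), the secreted protein gene Lgi4 (-2.34 ± 0.10), the p38 kinase gene Mapk13 (-2.45 ± 0.21), the co-repressor gene Tle2 (-2.57 ± 0.43) and Gas6, a ligand of Axl family receptors (-2.54 ± 0.50). The Tle2 difference was -3.29 without 0 h replicate 1 and -1.85 without 0 h replicate 2. Gas6 lost its call without 0 h replicate 2 or 24 h replicate 1. The normexp correction gave -2.62 for Kcns3, -1.64 for Evpl, -1.59 for Rtn4rl1, -1.20 for Adrb3, -1.73 for Lgi4, -1.29 for Mapk13, -1.36 for Tle2 and -1.11 for Gas6.

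Some genes were measured at 24 h and not well above background on either array at 0 h, or the reverse, and only a bound can be given for them. The bound sets the mean of the measured time against a floor for the other time, which is per array the dimmest signal that still counted as well above background, or the probe's own signal where that is higher. There were 93 such genes called higher and 175 called lower. An adjusted p printed beside a bound, here and below, is that of the fitted difference and not of the bound. These genes passed the filter only through the time at which they were bright, so that p is no support for the bound. Prl2c1, a further proliferin, was at least 76.6-fold higher (adjusted p = 1.87e-06), with measured relative signals of 0.0258 and 0.0241 at 0 h and 2.73 and 2.66 at 24 h. Evi2a, a small membrane protein gene, was at least 10.1-fold higher (adjusted p = 0.000118), Klra4, of the Ly49 receptor family whose copies are near-identical, at least 7.53-fold higher (adjusted p = 0.000103), and urate oxidase Uox at least 5.34-fold higher (adjusted p = 0.000137). Dynap, which encodes a dynactin-associated protein, was at least 6.95-fold higher (adjusted p = 5.33e-05). Efcab1 was at least 13.4-fold higher (adjusted p = 0.000107) and Rpl10l at least 10.6-fold higher (adjusted p = 0.000122), and both were above background on the 24 h arrays alone. Their features sit in rows 8 and 10 of column 41 of the array layout, and whether a mark on the slide touched both was not tested. Differences shrank with normexp to 4.17 for Prl2c1, 1.51 for Evi2a, 1.18 for Klra4, 1.17 for Uox, 1.25 for Dynap, 1.95 for Efcab1 and 1.79 for Rpl10l.

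In the other direction, Adamts16, a secreted metalloprotease, was at least 6.69-fold lower (adjusted p = 3.56e-05), from relative signals of 0.240 and 0.235 at 0 h and 0.0322 and 0.0352 at 24 h. Wipf3, a WASP-interacting protein gene, was at least 5.41-fold lower (adjusted p = 0.000512), Ecrg4 at least 4.93-fold lower (adjusted p = 0.000582), the mucin-like gene Mucl1 at least 4.92-fold lower (adjusted p = 0.00037), the cilium-associated gene Cys1 at least 4.07-fold lower (adjusted p = 0.00658) and Calml3, a calmodulin-like gene, at least 3.82-fold lower (adjusted p = 0.000291). In each of these 6 genes, neither 24 h array was well above background. Under normexp the differences were -0.96 for Adamts16, -0.85 for Wipf3, -0.83 for Ecrg4, -0.90 for Mucl1, -0.64 for Cys1 and -0.65 for Calml3.

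Genes were then read in 54 lists by role, chosen with earlier results of these data known. Each list's counts are to be read beside the shares over all genes tested, 21.3% higher and 20.3% lower. A count near those shares is no trait of its list. The shares over all genes include the 7605 genes with only a clone or locus name, whereas the lists were drawn up from named genes. Shares over named genes alone are not given here. The lists hold 1348 genes, of which 1091 were tested, and the rest were not well above background on both arrays of either time or have no probe here. Of the 27881 probes tested, 1236 were above background on both arrays at 0 h only and 638 at 24 h only, and such probes had to differ, so a list's count describes its tested members and supports nothing further. Without the filter on dim probes, 36095 genes were tested and 2189 were higher and 1999 lower.

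**Figure D3:**
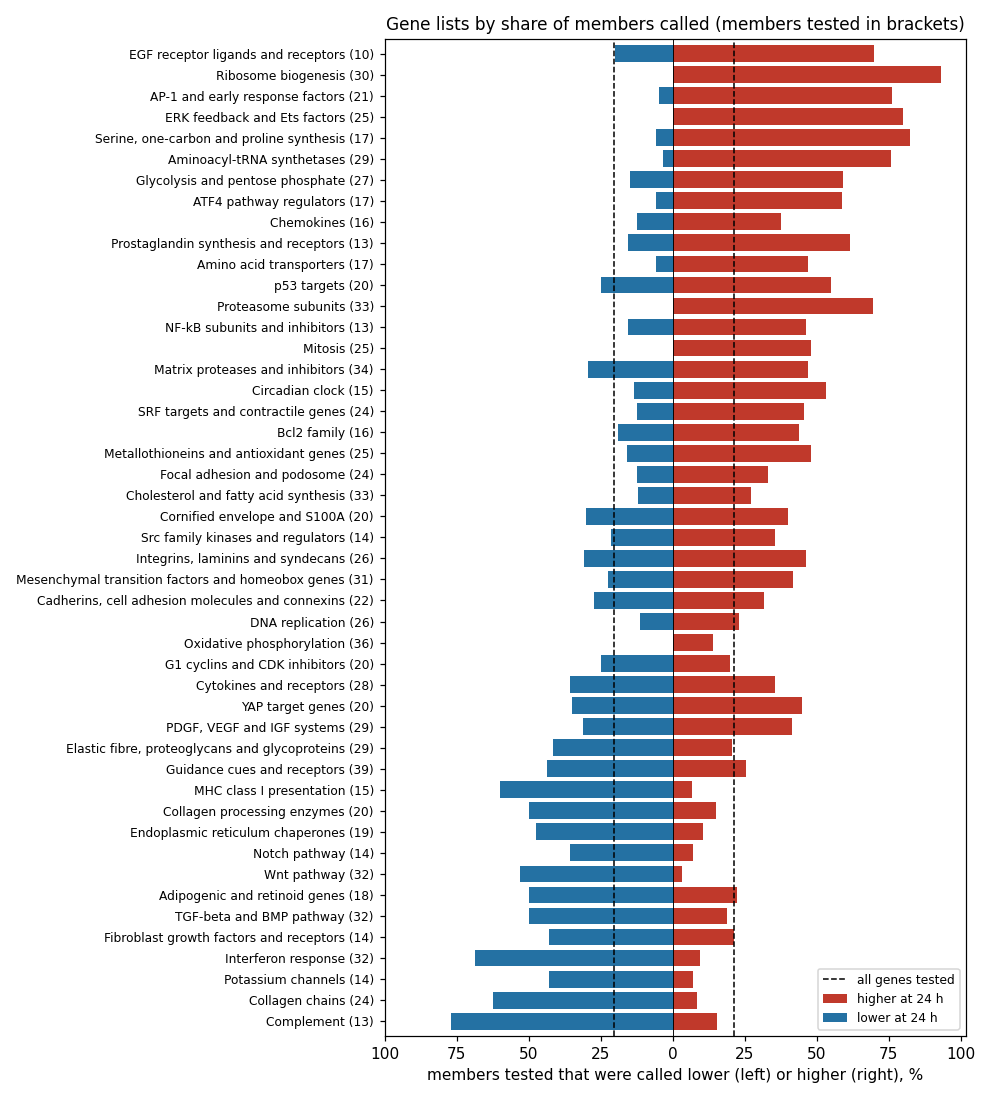
Gene lists with at least 10 members tested (number in brackets), ordered by the median difference of their members, with the percentage of members called higher to the right and lower to the left; dashed lines mark the shares over all genes tested (21.3% higher and 20.3% lower). Ribosome biogenesis has the longest bar to the right and complement the longest to the left.

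Src family kinases and their regulators were higher in 5 of 14 cases, Src among them, and lower in 3 (21.4%, against 20.3% over all genes tested). Matk, a Csk-homologous kinase that can phosphorylate the tail of Src family kinases, had relative signals of 0.798 and 0.798 at 0 h and 0.563 and 0.574 at 24 h (-0.49 ± 0.06, adjusted p = 0.00197). It was lower on both 24 h arrays, whereas Lyn, a Src family member, was at least 1.57-fold higher (adjusted p = 0.00637). Without 0 h replicate 1 the higher members numbered 3. Lyn lost its call with normexp.

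Focal adhesion and podosome genes, which encode the proteins that tie integrins to actin, were higher in 8 of 24 cases and lower in 3. Vcl, which encodes vinculin, had relative signals of 7.47 and 7.37 at 0 h and 11.2 and 10.8 at 24 h (0.57 ± 0.05, adjusted p = 0.000699). Ilk, integrin-linked kinase, had 5.71 and 5.81 at 0 h and 8.32 and 7.99 at 24 h (0.50 ± 0.05, adjusted p = 0.000991), and its partner Lims1 rose by 0.45 ± 0.06, although a second Lims1 probe differed by 0.08. These rises were small, each under 0.6 on the log2 scale. Nedd9, a scaffold phosphorylated by Src and Fak, had 1.61 and 1.52 at 0 h and 0.663 and 0.628 at 24 h (-1.28 ± 0.06, adjusted p = 0.000186), and the tensin gene Tns3 had 12.7 and 11.5 at 0 h and 5.74 and 5.14 at 24 h (-1.15 ± 0.09, adjusted p = 0.000443). Both scaffolds fell on both arrays. Without 0 h replicate 2 the higher members numbered 5.

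Several ligands of the EGF receptor rose. The EGF receptor list, which mixes ligands, receptors and the inhibitor gene Errfi1, held 10 tested genes. Of these, 7 were higher and 2 lower, with a median difference of 0.80 (0.34 with normexp). Ereg (epiregulin) had relative signals of 0.105 and 0.137 at 0 h and 0.809 and 0.788 at 24 h (2.73 ± 0.12, adjusted p = 0.000139). Hbegf had 1.91 and 2.14 at 0 h and 6.85 and 7.62 at 24 h (1.84 ± 0.10, adjusted p = 0.000204). Areg (amphiregulin), not above background at 0 h, was at least 1.36-fold higher (adjusted p = 0.00102). These 3 ligands stood higher on both 24 h arrays, and Epgn (epigen) went the other way and was at least 1.99-fold lower (adjusted p = 0.0311). Errfi1, which encodes an inhibitor that binds the receptor's kinase domain, had 6.58 and 6.78 at 0 h and 38.2 and 37.6 at 24 h (2.50 ± 0.07, adjusted p = 4.17e-05). Epgn lost its call under quantile normalization, without the filter on dim probes and without either 0 h array or either 24 h array. Normexp gave smaller differences of 1.74 for Ereg and -0.34 for Epgn.

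Feedback genes of the ERK pathway were higher in 20 of 25 cases and lower in none, with a median of 0.54 against -0.02 over all genes. They include phosphatases that act on MAP kinases, Sprouty and Spred inhibitors, and Ets transcription factors. Dusp4, a nuclear phosphatase of ERK, had relative signals of 0.834 and 0.829 at 0 h and 9.41 and 8.84 at 24 h (3.46 ± 0.05, adjusted p = 9.84e-06). Dusp6, which acts on ERK in the cytoplasm, had 11.6 and 10.9 at 0 h and 65.2 and 71.4 at 24 h (2.61 ± 0.07, adjusted p = 4.63e-05). Both phosphatase genes stood several-fold above 0 h on both arrays, and Dusp8 rose by 1.65 ± 0.46 on its brightest probe, with a second probe at 0.04. Without 24 h replicate 1 the Dusp8 rise was 2.31, and without 24 h replicate 2 it was 0.99. Etv4 and Etv5, Ets factors whose transcripts follow ERK activity in many cells, had 1.87 and 2.01 at 0 h and 21.2 and 25.3 at 24 h (3.58 ± 0.10, adjusted p = 4.06e-05) and 2.80 and 2.86 at 0 h and 16.6 and 16.6 at 24 h (2.55 ± 0.05, adjusted p = 1.85e-05). Dusp8 lost its call without the filter on dim probes, with only the 4 arrays in the fit and without 0 h replicate 1, either 6 h array, 24 h replicate 2 or either 72 h array.

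AP-1 and early response factors were higher in 16 of 21 cases and lower in 1, with a median of 0.57. AP-1 is a dimer of Fos and Jun family proteins. Fosl1, which encodes the Fos relative Fra-1, had relative signals of 0.160 and 0.196 at 0 h and 2.70 and 2.85 at 24 h (3.97 ± 0.10, adjusted p = 3.84e-05). Myc had 1.43 and 1.5 at 0 h and 5.27 and 5.86 at 24 h (1.92 ± 0.07, adjusted p = 9.91e-05), and Maff, a small Maf factor, had 3.20 and 3.06 at 0 h and 9.61 and 11.2 at 24 h (1.73 ± 0.08, adjusted p = 0.000171). All 3 stood above their 0 h level on both arrays at 24 h. Egr2 had 0.212 and 0.244 at 0 h and 1.95 and 1.81 at 24 h (3.05 ± 0.08, adjusted p = 3.98e-05) and Egr1 had 3.63 and 5.30 at 0 h and 12.9 and 12.7 at 24 h (1.55 ± 0.17, adjusted p = 0.0014). Both zinc finger genes were well past their highest level by then, since Egr2 stood at 5.66 and 5.72 and Egr1 at 39.3 and 39.1 at 6 h. After normexp background correction the differences were 3.12 for Fosl1 and 2.32 for Egr2.

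Early response genes often carry CArG boxes, the letters bound by serum response factor (SRF), near their start. RefSeq's promoter table (GRCm38.p6, 250 bases before to 50 after each start, 32851 promoters) holds a CArG box in 1.63% of promoters. The share was 1.41% over promoters of genes tested and 3.23% over those of genes at least 2-fold higher. Among the 16 AP-1 and early response genes called higher, 12 have promoters in the table, 20 promoters in all, of which 5 hold a box. Promoters and not genes are counted, and both starts of Egr2 are among the 5. Of 11 promoters of the SRF targets and contractile genes called higher, 2 hold a box. Myl9, of the same list but called lower, has a box as well. No test was made of these shares. Stretches of the Egr2 promoters are shown because Egr2 was the early response gene with the second largest rise, and Fosl1, with the largest, has no entry in the table. Capitals mark the box, and the stretches lie at chr10:67537454-67537543 and chr10:67537757-67537846 on the plus strand.
Egr2, first start: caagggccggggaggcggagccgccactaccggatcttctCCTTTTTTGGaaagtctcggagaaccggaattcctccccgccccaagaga
Egr2, later start: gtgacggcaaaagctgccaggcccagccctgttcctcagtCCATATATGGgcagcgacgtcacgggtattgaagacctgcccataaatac
In both, the box ends 63 bases before its start. A match of letters is a description and not a binding site.

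Several secreted proteases of the matrix rose by large factors, while other proteases and inhibitors fell. Of 34 tested matrix proteases and inhibitors, 16 were higher and 10 lower, with a median of 0.20. Mmp10 and Mmp3, the stromelysins, had relative signals of 0.374 and 0.424 at 0 h and 6.13 and 5.39 at 24 h (3.85 ± 0.11, adjusted p = 5.00e-05) and 0.133 and 0.135 at 0 h and 1.16 and 1.23 at 24 h (3.15 ± 0.07, adjusted p = 2.31e-05). Mmp13, a collagenase, had 1.61 and 1.37 at 0 h and 7.82 and 7.19 at 24 h (2.33 ± 0.11, adjusted p = 0.000153). All 3 genes lie in the cluster of matrix metalloprotease genes on chromosome 9, and in each the 24 h arrays lay several-fold above those of 0 h. Adam19, a membrane-anchored metalloprotease, had 0.364 and 0.338 at 0 h and 1.41 and 1.40 at 24 h (2.0 ± 0.06, adjusted p = 4.17e-05). Serpinb2, an inhibitor of plasminogen activators that was not above background at 0 h, was at least 36.7-fold higher (adjusted p = 0.000311), and had 24 h signals of 1.31 and 1.28. Other parts of the plasminogen system and of the inhibitor set, named here after their values were seen, moved both ways. Plaur, the urokinase receptor, rose by 1.74 ± 0.06, and Timp1 rose by 0.59 ± 0.08. The inhibitor genes Timp3 and Reck fell by 1.06 ± 0.04 and 0.63 ± 0.09, the membrane-bound metalloprotease gene Mmp17 by 1.0 ± 0.05, and Adamts5, which cuts aggrecan, by 1.33 ± 0.17. By normexp the differences were 2.08 for Mmp3 and 3.21 for Serpinb2.

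AP-1 is known to bind promoters of stromelysin and collagenase genes through the letters TGANTCA. These letters, read on both strands, were found in 7.81% of all promoters in the table, 5.51% of those of genes tested, 5.28% of those of genes not called, 14.3% of those of genes at least 2-fold higher (40 of 279 promoters) and 7.31% of those of genes at least 2-fold lower (32 of 438). Of 15 promoters of the called higher proteases and inhibitors, 7 held them. The cyclic AMP response element TGACGTCA was in 3.23% of promoters of genes at least 2-fold higher and 2.93% of those tested. No test was made of these shares. They count promoters and not genes, so a gene with several starts enters more than once (279 promoters of 222 genes at least 2-fold higher). The stretches below are shown because these genes are among the largest rises with the letters upstream of the start. Capitals mark the letters, at chr9:7445736-7445821 (Mmp3), chr9:7502239-7502325 (Mmp10), chr9:7272439-7272513 (Mmp13) and chr1:107511289-107511375 (Serpinb2), all on the plus strand.
Mmp3: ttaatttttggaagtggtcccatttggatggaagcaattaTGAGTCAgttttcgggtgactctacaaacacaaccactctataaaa
Mmp10: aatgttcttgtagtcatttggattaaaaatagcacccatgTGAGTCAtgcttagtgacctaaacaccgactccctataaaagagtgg
Mmp13: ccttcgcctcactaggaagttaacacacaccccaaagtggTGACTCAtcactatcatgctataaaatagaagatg
Serpinb2: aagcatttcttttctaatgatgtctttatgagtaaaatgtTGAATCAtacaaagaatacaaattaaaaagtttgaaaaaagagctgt
In the metalloprotease genes the letters lie 40 to 46 (Mmp3), 57 to 63 (Mmp10) and 29 to 35 (Mmp13) bases before the start, and in Serpinb2 88 to 94 bases before it.

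Genes of the epidermal cornified envelope split. Of 20 tested cornified envelope and S100A genes, 8 were higher and 6 lower, with a median of 0.12. Of the small proline-rich genes in the list, 5 of 7 tested were called higher, and 6 more stayed within background at both times. Sprr1a had relative signals of 0.813 and 0.797 at 0 h and 4.95 and 5.13 at 24 h (2.65 ± 0.05, adjusted p = 1.84e-05) and Sprr2e had 0.198 and 0.192 at 0 h and 1.30 and 1.45 at 24 h (2.82 ± 0.08, adjusted p = 4.63e-05). Sprr2h, not above background at 0 h, was at least 51.2-fold higher (adjusted p = 5.00e-05). Lce1g, a late cornified envelope gene, was at least 5.04-fold higher (adjusted p = 0.000223), and was not above background at 6 h either. Lor, which encodes loricrin, the main protein of the envelope, went the other way with 2.85 and 2.97 at 0 h and 0.770 and 0.552 at 24 h (-2.16 ± 0.17, adjusted p = 0.000528). The Sprr2 genes have near-identical copies, and which copy a probe reads is uncertain. With probes above background on all 4 arrays, 5 members were higher and the median was -0.016. The normexp correction gave 2.17 for Sprr2e, 3.25 for Sprr2h and 1.03 for Lce1g.

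The same letters TGANTCA were in 5 of the 7 promoters of the called higher members of the cornified envelope list, against 5.51% of promoters of genes tested. No share was taken for members of that list that were lower or not called. Sprr2 genes, which have near-identical copies, are among the members, so their promoters may not be separate cases. Stretches of the 3 Sprr promoters are shown because these small proline-rich genes rose most. They lie on chromosome 3, at chr3:92485951-92486067 on the minus strand for Sprr1a, and at chr3:92351910-92351996 and chr3:92385447-92385533 on the plus strand for Sprr2e and Sprr2h. Capitals mark the letters, which occur in 2 places in the Sprr1a stretch.
Sprr1a: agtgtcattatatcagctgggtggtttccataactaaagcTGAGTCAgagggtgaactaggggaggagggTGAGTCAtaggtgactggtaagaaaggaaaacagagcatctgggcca
Sprr2e: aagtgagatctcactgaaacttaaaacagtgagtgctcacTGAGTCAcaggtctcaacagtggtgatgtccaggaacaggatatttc
Sprr2h: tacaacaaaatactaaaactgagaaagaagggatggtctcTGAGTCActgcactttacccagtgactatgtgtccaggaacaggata
The letters nearest the start end 110 bases before it in Sprr1a, 187 in Sprr2e and 192 in Sprr2h.

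Inflammatory products were mixed. Among 16 chemokine genes tested, 6 were higher and 2 lower, with a median of 0.31 (0.21 with normexp and 0.20 without 24 h replicate 2). Cxcl1, which attracts neutrophils, had relative signals of 0.324 and 0.340 at 0 h and 0.922 and 0.936 at 24 h (1.49 ± 0.05, adjusted p = 6.98e-05). Ccl7 and Ccl2, which attract monocytes, had 1.33 and 1.38 at 0 h and 3.25 and 3.71 at 24 h (1.36 ± 0.07, adjusted p = 0.000213) and 25.9 and 26.8 at 0 h and 51.5 and 52.4 at 24 h (0.98 ± 0.05, adjusted p = 0.000209). Cxcl12, the ligand of Cxcr4, had 179 and 186 at 0 h and 109.6 and 93.7 at 24 h (-0.85 ± 0.09, adjusted p = 0.00113), and the skin chemokine gene Ccl27a fell by 1.42 ± 0.18. The chemokines that rose and the one that fell most in signal differed without overlap of their arrays. Of 28 cytokine and receptor genes, 10 were higher and 10 lower. Csf2, which encodes GM-CSF, was at least 10.5-fold higher (adjusted p = 4.06e-05), and Tnfsf11, which encodes RANKL, at least 1.55-fold higher (adjusted p = 0.0026). Tnfrsf12a, the receptor of TWEAK, had 17.0 and 18.7 at 0 h and 62.3 and 66.5 at 24 h (1.85 ± 0.07, adjusted p = 7.85e-05). Il18 had 6.51 and 7.29 at 0 h and 2.54 and 2.57 at 24 h (-1.43 ± 0.08, adjusted p = 0.000202) and the interleukin 11 receptor gene Il11ra1 18.6 and 19.0 at 0 h and 11.1 and 10.9 at 24 h (-0.78 ± 0.05, adjusted p = 0.000285). Both of these fell on both arrays. Without 0 h replicate 2, 6 of the cytokine genes were higher. Differences shrank with normexp to -0.48 for Ccl27a and 1.64 for Csf2.

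NF-kB subunits and inhibitors were higher in 6 of 13 cases and lower in 2. Tnfaip3, a feedback inhibitor of NF-kB, had relative signals of 2.53 and 2.43 at 0 h and 6.59 and 7.44 at 24 h (1.5 ± 0.08, adjusted p = 0.000186), and Nfkbiz, a nuclear modifier of its output, had 0.344 and 0.351 at 0 h and 0.613 and 0.753 at 24 h (0.97 ± 0.10, adjusted p = 0.00135). Tnip2 and Bcl3 rose by 0.46 ± 0.08 and 0.39 ± 0.11, and Tnip1 fell by 0.41 ± 0.05. The higher members numbered 3 without 24 h replicate 2 and also with only the 4 arrays in the fit. Tnip2 lost its call without the filter on dim probes. Bcl3 lost its call under quantile normalization, without the filter on dim probes, with only the 4 arrays in the fit and without either 0 h array, 24 h replicate 2 or either 72 h array. Tnip1 lost its call under median scaling.

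Prostaglandin synthesis and receptor genes were higher in 8 of 13 cases and lower in 2. Ptgs2, the inducible cyclooxygenase, had relative signals of 0.0752 and 0.0693 at 0 h and 0.299 and 0.344 at 24 h (2.15 ± 0.09, adjusted p = 0.000129). Pla2g4a, the phospholipase that releases its substrate, had 6.76 and 7.0 at 0 h and 9.89 and 10.3 at 24 h (0.55 ± 0.05, adjusted p = 0.000802), and the prostaglandin transporter gene Slco2a1 had 0.322 and 0.300 at 0 h and 0.666 and 0.633 at 24 h (1.06 ± 0.06, adjusted p = 0.000257). The receptor genes parted, with Ptger4 at 0.0509 and 0.0365 at 0 h and 0.223 and 0.174 at 24 h (2.19 ± 0.31, adjusted p = 0.00331) and the prostacyclin receptor gene Ptgir falling by 1.16 ± 0.18. Of the 0 h arrays, 1 had Ptger4 well above background. Without 0 h replicate 1 the higher members numbered 5. Under normexp the differences were 1.02 for Ptgs2, 0.84 for Ptger4 and -0.48 for Ptgir.

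Complement genes, whose products fibroblasts secrete into tissue fluid, were lower in 10 of 13 cases and higher in 2, with a median of -0.95 (-0.49 with normexp), the lowest of the lists with at least 10 members tested. C4b had relative signals of 1.54 and 1.56 at 0 h and 0.703 and 0.587 at 24 h (-1.27 ± 0.11, adjusted p = 0.000677) and C2 had 0.288 and 0.252 at 0 h and 0.0953 and 0.0958 at 24 h (-1.49 ± 0.07, adjusted p = 0.000164). Cd59a, which shields cells from the complement pore, was at least 3.1-fold lower (adjusted p = 0.0022). Cfb fell by 1.37 ± 0.41. Clu (clusterin), a secreted chaperone that binds the pore complex, rose from 13.5 and 12.7 at 0 h to 30.7 and 27.1 at 24 h (1.14 ± 0.08, adjusted p = 0.00042), and was the only member with a rise of at least 2-fold. On 1 of the 24 h arrays Cfb did not stand well above background. Cfb lost its call under median scaling, under quantile normalization, without the filter on dim probes and without either 0 h array, either 6 h array or 24 h replicate 2. Normexp gave smaller differences of -0.76 for C2, -0.49 for Cd59a and -0.28 for Cfb.

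Interferon response genes were lower in 22 of 32 cases and higher in 3, with a median of -0.39. The guanylate-binding GTPase gene Gbp2 had relative signals of 0.260 and 0.284 at 0 h and 0.0937 and 0.0896 at 24 h (-1.57 ± 0.10, adjusted p = 0.000334), and its relative Gbp3 had 0.357 and 0.340 at 0 h and 0.133 and 0.0568 at 24 h (-2.0 ± 0.40, adjusted p = 0.0108). The Gbp3 difference was -2.62 without 24 h replicate 1 and -1.39 without 24 h replicate 2. Xaf1 had 0.348 and 0.353 at 0 h and 0.179 and 0.162 at 24 h (-1.04 ± 0.13, adjusted p = 0.00217), and Ifi44 was at least 1.22-fold lower (adjusted p = 0.00161). Against these, Oasl1, which restrains translation of Irf7, had 0.0689 and 0.0582 at 0 h and 0.219 and 0.189 at 24 h (1.69 ± 0.12, adjusted p = 0.000376). Oasl1 was the only member with a rise of at least 2-fold. Under median scaling 12 members were lower, and without 24 h replicate 2 only 1 was higher. The genes of MHC class I presentation were lower in 9 of 15 cases and higher in 1. Psmb9, a subunit of the immunoproteasome, had 0.324 and 0.340 at 0 h and 0.157 and 0.159 at 24 h (-1.08 ± 0.07, adjusted p = 0.000316). The class I heavy chain gene H2-K1, whose probe may also read other class I genes, fell by 0.53 ± 0.05, the peptide loading gene Tapbp by 0.60 ± 0.06, the peptide transporter gene Tap2 by 0.47 ± 0.09 and the chaperone gene Calr by 0.35 ± 0.06. Under median scaling 3 members were lower. Ifi44 lost its call with normexp. Tap2 and Calr lost their calls under median scaling and without the filter on dim probes. After normexp background correction the differences were -0.81 for Gbp2, -0.98 for Gbp3 and 0.78 for Oasl1.

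Collagen chain genes were lower in 15 of 24 cases and higher in 2, with a median of -0.58 (-0.31 with normexp). Col3a1, a fibril-forming collagen of soft tissue, had relative signals of 80.3 and 82.0 at 0 h and 39.1 and 36.8 at 24 h (-1.1 ± 0.06, adjusted p = 0.000223). Col6a2, of the microfibrillar type VI, had 4.71 and 4.29 at 0 h and 2.04 and 1.39 at 24 h (-1.42 ± 0.19, adjusted p = 0.00263), with the 24 h arrays further apart than the 0 h arrays. Col12a1, a collagen that coats fibrils, had 0.391 and 0.349 at 0 h and 0.0468 and 0.0813 at 24 h (-2.58 ± 0.24, adjusted p = 0.000882), and Col8a2, of a short-chain network collagen, had 0.223 and 0.278 at 0 h and 0.0336 and 0.0408 at 24 h (-2.75 ± 0.16, adjusted p = 0.000226). In these 4 genes every 24 h array lay below every 0 h array. Col2a1, the main cartilage collagen, fell as well, with 0.552 and 0.558 at 0 h and 0.253 and 0.246 at 24 h (-1.15 ± 0.04, adjusted p = 9.43e-05). Col1a2, of type I collagen, fell by 0.58 ± 0.10. Col7a1, which forms the anchoring fibrils below epithelia, rose instead, with 0.889 and 1.06 at 0 h and 2.39 and 2.56 at 24 h (1.35 ± 0.11, adjusted p = 0.000528). Only 1 of the 24 h arrays had Col8a2 well above background. Col1a2 lost its call under median scaling. By normexp the differences were -1.21 for Col12a1 and -1.09 for Col8a2.

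Enzymes that process collagen were lower in 10 of 20 cases and higher in 3. The cross-linking oxidase gene Lox had relative signals of 5.30 and 5.52 at 0 h and 2.43 and 2.33 at 24 h (-1.18 ± 0.05, adjusted p = 0.000128), and Loxl1 had 8.88 and 8.81 at 0 h and 5.04 and 4.85 at 24 h (-0.84 ± 0.04, adjusted p = 0.000202). Loxl3 fell by 0.49 ± 0.13. Both Lox and Loxl1 fell without overlap, whereas Pcolce2, which speeds up removal of the procollagen tail, had 1.61 and 1.76 at 0 h and 6.04 and 6.50 at 24 h (1.90 ± 0.07, adjusted p = 9.91e-05) and the prolyl hydroxylase gene P3h2 rose by 0.80 ± 0.15. The lower members numbered 4 under median scaling, 3 with only the 4 arrays in the fit, 5 and 4 without 0 h replicate 1 or 2, 6 without either 6 h array and 5 without either 72 h array. With the replicate number as a block 5 members were higher. Loxl3 lost its call with normexp, without the filter on dim probes, with only the 4 arrays in the fit and without 0 h replicate 2, either 24 h array or either 72 h array. P3h2 lost its call without the filter on dim probes, and its difference was 0.32 with normexp.

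Of 29 elastic fibre, proteoglycan and glycoprotein genes, 12 were lower and 6 higher (20.7%, against 21.3% over all genes tested). Fmod (fibromodulin), a small proteoglycan of collagen fibrils, had relative signals of 4.88 and 4.46 at 0 h and 1.21 and 0.908 at 24 h (-2.15 ± 0.14, adjusted p = 0.0003). Nid2, a basement membrane linker, had 7.45 and 7.11 at 0 h and 2.39 and 2.03 at 24 h (-1.73 ± 0.09, adjusted p = 0.000179), and the basement membrane gene Fras1 had 0.335 and 0.281 at 0 h and 0.0372 and 0.0307 at 24 h (-3.18 ± 0.29, adjusted p = 0.000781). Has2, which synthesises hyaluronan, rose, with 0.633 and 0.705 at 0 h and 3.23 and 4.21 at 24 h (2.46 ± 0.14, adjusted p = 0.000215). Spp1 belongs to this list and held the largest rise in it. The median of the list, -0.13, turned to 0.021 under median scaling. Of the 24 h arrays, 1 had Fras1 well above background. Normexp gave -1.23 for Fras1.

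Cell surface adhesion receptors changed in both directions. Of 26 integrin, laminin and syndecan genes, 12 were higher and 8 lower. Itgb2 and Itgb7, beta chains of integrins best known from leukocytes, had relative signals of 0.236 and 0.221 at 0 h and 1.06 and 0.988 at 24 h (2.16 ± 0.07, adjusted p = 5.33e-05) and 0.697 and 0.637 at 0 h and 2.48 and 2.83 at 24 h (1.99 ± 0.08, adjusted p = 0.000112). The syndecan gene Sdc3 rose by 1.25 ± 0.16. Itga1, the alpha chain of a collagen receptor, had 0.363 and 0.301 at 0 h and 0.0723 and 0.0496 at 24 h (-2.46 ± 0.24, adjusted p = 0.001), and the laminin chain gene Lamb2 had 6.58 and 6.56 at 0 h and 3.25 and 3.13 at 24 h (-1.04 ± 0.05, adjusted p = 0.000168). Under median scaling 5 members were lower. Of the 12 macrophage and blood markers, 7 were tested, of which 3 were higher (Csf1r, Cd14 and Cd68) and none lower, and 5 were not above background on any of the 4 arrays, Ptprc among them. Their summed signal was 17.4 and 19 at 0 h and 17.1 and 18.2 at 24 h, and their part in the integrin values was not tested. On 1 of the 0 h arrays Sdc3 did not stand well above background. Differences shrank with normexp to 0.36 for Sdc3 and -1.19 for Itga1.

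Cadherins, adhesion molecules and connexins were higher in 7 of 22 cases and lower in 6. Vcam1, a ligand of leukocyte integrins, had relative signals of 3.57 and 3.76 at 0 h and 20.4 and 19.1 at 24 h (2.43 ± 0.07, adjusted p = 4.06e-05), and Nectin1 had 0.390 and 0.387 at 0 h and 0.964 and 0.940 at 24 h (1.29 ± 0.07, adjusted p = 0.000198). Gja1 (connexin 43), a gap junction protein whose channels Src closes, had 5.28 and 4.61 at 0 h and 2.63 and 2.49 at 24 h (-0.95 ± 0.09, adjusted p = 0.000947). Cdh11, a cadherin of fibroblasts, had 1.1 and 1.04 at 0 h and 0.652 and 0.533 at 24 h (-0.86 ± 0.10, adjusted p = 0.00187), and the cell surface receptor gene Cdon had 26.0 and 25.1 at 0 h and 11.8 and 11.1 at 24 h (-1.16 ± 0.06, adjusted p = 0.000202). The 3 last named fell without overlap of the arrays.

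**Figure D4:**
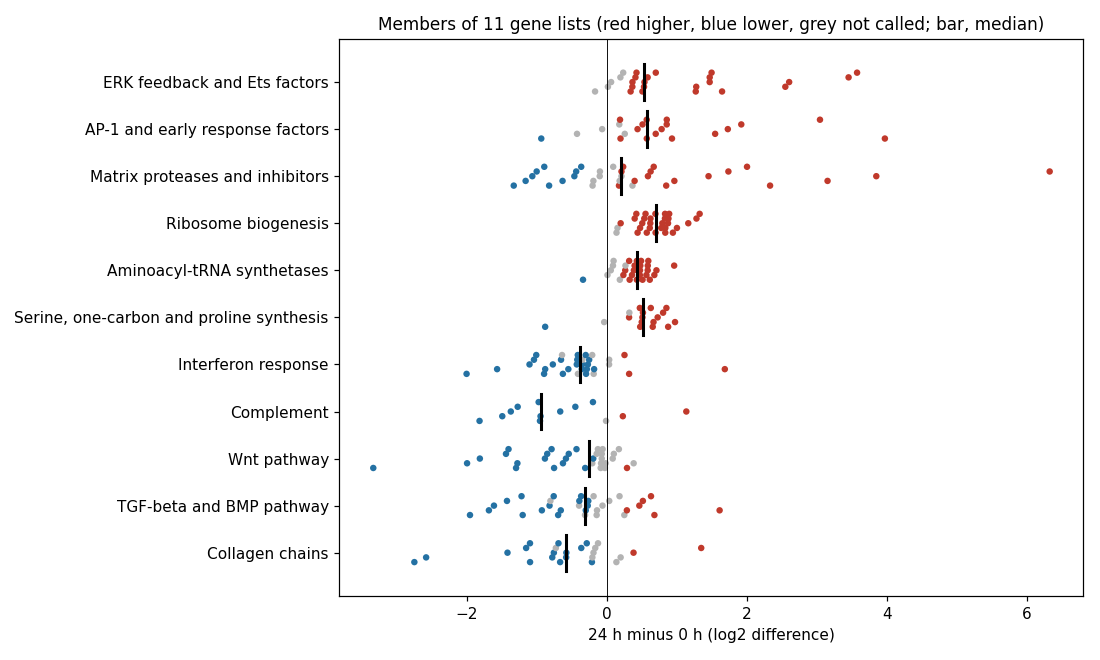
Members tested in 11 gene lists, 1 point per gene at its 24 h minus 0 h log2 difference, coloured red where called higher, blue where called lower and grey where not called; the black bar is the list's median, and points are spread vertically only to keep them apart. Ribosome biogenesis genes lie in a narrow band right of 0, and most tRNA synthetase genes do too, though that list reaches down to -0.34. Proteases and inhibitors reach from 6.33 for Serpinb2, whose fitted value is no bound, to -1.33 for Adamts5.

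Wnt pathway genes were lower in 17 of 32 cases and higher in 1, with a median of -0.26 (-0.13 with normexp, -0.11 under median scaling and -0.49 as the mean over a gene's probes). Among the ligands and their enhancers, Wnt9a had relative signals of 4.36 and 4.35 at 0 h and 1.59 and 1.62 at 24 h (-1.44 ± 0.05, adjusted p = 9.43e-05) and Rspo3, an R-spondin that amplifies Wnt signals, had 0.367 and 0.359 at 0 h and 0.0914 and 0.0905 at 24 h (-2.0 ± 0.14, adjusted p = 0.000387). The receptor gene Fzd4 had 2.02 and 2.18 at 0 h and 0.798 and 0.789 at 24 h (-1.40 ± 0.05, adjusted p = 0.000103). Each of these fell on both arrays. Axin2 and Nkd1 are feedback inhibitors whose transcripts follow beta-catenin activity in many cells. Axin2 was at least 5.24-fold lower (adjusted p = 0.000158), from 0.178 and 0.178 at 0 h and 0.0205 and 0.0151 at 24 h, and Nkd1 had 0.210 and 0.170 at 0 h and 0.0646 and 0.0447 at 24 h (-1.81 ± 0.24, adjusted p = 0.00253). Only 1 of the 24 h arrays had Nkd1 well above background. Under normexp the differences were -1.01 for Rspo3, -0.89 for Axin2 and -0.65 for Nkd1.

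TGF-beta and BMP pathway genes were lower in 16 of 32 cases and higher in 6 (18.8%, against 21.3% over all genes tested), with a median of -0.31. The ligand genes Tgfb3 and Tgfb2 had relative signals of 32.3 and 30.7 at 0 h and 10.7 and 9.0 at 24 h (-1.69 ± 0.09, adjusted p = 0.000198) and 4.73 and 4.81 at 0 h and 1.77 and 1.37 at 24 h (-1.61 ± 0.12, adjusted p = 0.00042). Fst (follistatin) and Fstl3, which bind activins, had 2.70 and 2.64 at 0 h and 0.652 and 0.726 at 24 h (-1.96 ± 0.06, adjusted p = 5.77e-05) and 0.357 and 0.361 at 0 h and 0.152 and 0.117 at 24 h (-1.43 ± 0.14, adjusted p = 0.000911). Ligands and trap thus fell on both arrays. Ltbp1, which holds latent TGF-beta in the matrix, rose from 1.53 and 1.58 at 0 h to 4.53 and 5.03 at 24 h (1.61 ± 0.06, adjusted p = 0.000114). Normexp gave -0.79 for Fstl3.

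Fibroblast growth factors and receptors were lower in 6 of 14 cases and higher in 3 (21.4%, against 21.3% over all genes tested). Fgf9 had relative signals of 0.385 and 0.390 at 0 h and 0.0684 and 0.0407 at 24 h (-2.87 ± 0.23, adjusted p = 0.000558) and Fgf18 had 10.8 and 10.7 at 0 h and 4.14 and 4.09 at 24 h (-1.39 ± 0.07, adjusted p = 0.000186). Flrt3, a membrane protein that binds FGF receptors, had 1.17 and 1.13 at 0 h and 0.506 and 0.480 at 24 h (-1.22 ± 0.11, adjusted p = 0.000719), and the receptor gene Fgfr4 fell by 0.86 ± 0.17. Fgf7 (keratinocyte growth factor), which fibroblasts make for epithelia, had 0.0548 and 0.0544 at 0 h and 0.110 and 0.138 at 24 h (1.17 ± 0.17, adjusted p = 0.00369). Fgfr4 lost its call without the filter on dim probes and without 0 h replicate 1. After normexp background correction the differences were -1.41 for Fgf9, -0.30 for Fgfr4 and 0.43 for Fgf7.

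Of 29 genes of the PDGF, VEGF and IGF systems, 12 were higher and 9 lower. Angpt2, an antagonist ligand of the Tie2 receptor, was at least 4.98-fold higher (adjusted p = 0.000142), and Angptl4 had relative signals of 0.949 and 0.991 at 0 h and 1.75 and 2.03 at 24 h (0.96 ± 0.08, adjusted p = 0.000615). Igfbp2 and Igfbp4, which bind insulin-like growth factors, were lower, Igfbp2 at least 5.5-fold lower (adjusted p = 0.000603) and Igfbp4 with 3.49 and 3.34 at 0 h and 1.69 and 1.73 at 24 h (-1.0 ± 0.06, adjusted p = 0.000222). Nrp1, a co-receptor of VEGF and semaphorins, had 0.796 and 0.793 at 0 h and 0.448 and 0.330 at 24 h (-1.05 ± 0.15, adjusted p = 0.00314). The PDGF receptor genes Pdgfra and Pdgfrb, fibroblast markers, fell by 0.47 ± 0.09 and 0.67 ± 0.10. Pdgfra lost its call under median scaling and without the filter on dim probes. By normexp the differences were 0.79 for Angpt2 and -0.94 for Igfbp2.

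Notch pathway genes were lower in 5 of 14 cases and higher in 1. The ligand gene Jag1 had relative signals of 1.12 and 1.11 at 0 h and 0.601 and 0.594 at 24 h (-0.91 ± 0.05, adjusted p = 0.000202), the receptor gene Notch3 1.60 and 1.68 at 0 h and 0.923 and 0.915 at 24 h (-0.84 ± 0.06, adjusted p = 0.000416) and the target gene Hey1 4.43 and 4.46 at 0 h and 2.69 and 2.07 at 24 h (-0.91 ± 0.12, adjusted p = 0.0025). Ligand, receptor and target were thus each lower on both 24 h arrays. Dll1 and Hes6 fell by 0.38 ± 0.10 and 0.29 ± 0.05. Under median scaling 3 members were lower. Dll1 lost its call under median scaling, under quantile normalization, with normexp, without the filter on dim probes, with only the 4 arrays in the fit, with a trended prior variance and without 0 h replicate 2, either 6 h array or 24 h replicate 2. Hes6 lost its call under median scaling and without the filter on dim probes.

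Guidance cues and their receptors were lower in 17 of 39 cases and higher in 10 (25.6%, against 21.3% over all genes tested). Sema5a had relative signals of 0.124 and 0.134 at 0 h and 0.734 and 0.746 at 24 h (2.52 ± 0.11, adjusted p = 0.000139) and Sema3g, a secreted semaphorin, had 0.376 and 0.359 at 0 h and 0.112 and 0.136 at 24 h (-1.58 ± 0.10, adjusted p = 0.000304). Plxnb1, a semaphorin receptor, had 0.991 and 1.000 at 0 h and 0.307 and 0.275 at 24 h (-1.78 ± 0.07, adjusted p = 0.000122), and Robo4, a Slit receptor family member of blood vessels, was at least 6.18-fold lower (adjusted p = 5.77e-05). The semaphorins thus moved in both directions. Sema4f rose by 2.45 ± 0.50, with 24 h arrays at 0.415 and 0.163, and by 1.78 without replicate 1 and 3.13 without replicate 2 of 24 h. Sema4f lost its call without the filter on dim probes and without 0 h replicate 1. The normexp correction gave 1.67 for Sema5a, -0.90 for Sema3g, -0.88 for Robo4 and 0.95 for Sema4f.

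SRF targets and contractile genes were higher in 11 of 24 cases and lower in 3. The actin genes Acta2 and Acta1 had relative signals of 19.2 and 18.8 at 0 h and 48.2 and 52.5 at 24 h (1.40 ± 0.06, adjusted p = 0.000155) and 0.550 and 0.547 at 0 h and 1.45 and 1.52 at 24 h (1.43 ± 0.06, adjusted p = 0.000119), and the sequences of actin genes are alike, and whether their probes read each other's transcripts was not tested. Tgfb1i1 (Hic-5), a focal adhesion adaptor, had 2.24 and 2.24 at 0 h and 4.32 and 5.0 at 24 h (1.05 ± 0.08, adjusted p = 0.000458). These rose while others of the list fell. Cnn1 (calponin) had 0.706 and 0.722 at 0 h and 0.164 and 0.176 at 24 h (-2.07 ± 0.12, adjusted p = 0.000244) and the myosin light chain gene Myl9 had 0.376 and 0.416 at 0 h and 0.0837 and 0.0615 at 24 h (-2.46 ± 0.15, adjusted p = 0.000251). Scaling to the 75th percentile of spots above background gave 5 lower members. Differences shrank with normexp to -1.41 for Cnn1 and -1.26 for Myl9.

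YAP target genes were higher in 9 of 20 cases and lower in 7. Ankrd1, a nuclear ankyrin repeat protein, had relative signals of 8.09 and 8.01 at 0 h and 77.7 and 90.8 at 24 h (3.38 ± 0.08, adjusted p = 3.17e-05), and Ccn2 (connective tissue growth factor) had 22.0 and 22.3 at 0 h and 51.1 and 54.8 at 24 h (1.26 ± 0.06, adjusted p = 0.000139). F3 (tissue factor), the starter of clotting, had 3.40 and 3.32 at 0 h and 7.41 and 7.19 at 24 h (1.12 ± 0.05, adjusted p = 0.000138). Amotl1 rose by 1.02 ± 0.06 and Arhgef17 fell by 0.90 ± 0.07. Under median scaling 3 members were lower, and the median of the list, -0.06, turned to 0.093 under median scaling and to 0.12 without 24 h replicate 1.

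Glycolysis and pentose phosphate genes were higher in 16 of 27 cases and lower in 4, with a median of 0.33. The glucose transporter gene Slc2a1 had relative signals of 13.3 and 13.3 at 0 h and 24.7 and 24.0 at 24 h (0.87 ± 0.04, adjusted p = 0.00018), and hexokinase Hk2 had 5.5 and 5.44 at 0 h and 13.6 and 14.8 at 24 h (1.38 ± 0.06, adjusted p = 0.000126). Eno2 rose by 0.82 ± 0.15. Txnip, which holds back glucose uptake, had 13.1 and 11.8 at 0 h and 2.02 and 1.54 at 24 h (-2.81 ± 0.15, adjusted p = 0.00021), and the aldolase gene Aldoc had 7.24 and 7.38 at 0 h and 2.32 and 2.63 at 24 h (-1.57 ± 0.08, adjusted p = 0.000201). The transporter and its inhibitor thus moved in opposite directions on both arrays. Under median scaling 2 members were lower.

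Genes that supply and charge amino acids were higher across most of their lists. Of 29 aminoacyl-tRNA synthetases and their partners, 22 were higher and 1 lower, with a median of 0.43. Iars had relative signals of 18.5 and 20.2 at 0 h and 30.5 and 32.7 at 24 h (0.71 ± 0.07, adjusted p = 0.000827), Sars 46.4 and 50.2 at 0 h and 71.1 and 76.8 at 24 h (0.61 ± 0.06, adjusted p = 0.00113) and Cars 23.3 and 24.1 at 0 h and 35.1 and 36.5 at 24 h (0.59 ± 0.05, adjusted p = 0.000544). The steps were small and alike across these 3 genes. The mitochondrial enzyme gene Yars2 rose by 0.68 ± 0.06 and the synthetase complex gene Eef1e1 by 0.96 ± 0.06. Of 17 genes of serine, one-carbon and proline synthesis, 14 were higher and 1 lower, with a median of 0.52. Mthfd2 and Mthfd1l, of mitochondrial folate metabolism, had 3.15 and 3.50 at 0 h and 5.63 and 6.36 at 24 h (0.85 ± 0.09, adjusted p = 0.00141) and 11.6 and 12.9 at 0 h and 21.1 and 23.9 at 24 h (0.88 ± 0.08, adjusted p = 0.000854). Cth, which makes cysteine from cystathionine, had 1.27 and 1.36 at 0 h and 2.32 and 2.88 at 24 h (0.97 ± 0.10, adjusted p = 0.00133), whereas Cbs, the enzyme of the step before it, had 0.357 and 0.395 at 0 h and 0.200 and 0.208 at 24 h (-0.88 ± 0.09, adjusted p = 0.00108). Shmt1 rose by 0.80 ± 0.05.

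Amino acid transporters were higher in 8 of 17 cases and lower in 1. Slc7a1, a carrier of cationic amino acids, had relative signals of 18.3 and 18.9 at 0 h and 34.3 and 37.6 at 24 h (0.95 ± 0.09, adjusted p = 0.000803), and Slc7a11, the cystine carrier, had 0.147 and 0.183 at 0 h and 0.316 and 0.306 at 24 h (0.92 ± 0.12, adjusted p = 0.00226). The glutamine carrier genes Slc38a1 and Slc38a2 rose by 0.59 ± 0.06 and 0.47 ± 0.05, and the glutamate carrier gene Slc1a3 fell by 0.59 ± 0.08. Regulators of the ATF4 pathway, the transcription programme of amino acid shortage and other stress, were higher in 10 of 17 cases and lower in 1. Ddit3 (Chop) had 2.18 and 2.34 at 0 h and 5.19 and 5.92 at 24 h (1.29 ± 0.08, adjusted p = 0.000295) and Trib3, a pseudokinase, 11.7 and 14.1 at 0 h and 23.1 and 26.3 at 24 h (0.94 ± 0.10, adjusted p = 0.00145). Chac1, which degrades glutathione, had 7.48 and 7.92 at 0 h and 12.3 and 13.4 at 24 h (0.74 ± 0.07, adjusted p = 0.000925). All 3 were higher on both arrays. Stc2 (stanniocalcin) and Gdf15 rose by 1.29 ± 0.12 and 0.97 ± 0.17. The normexp correction gave 0.29 for Gdf15.

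ATF4 binds composite elements whose core letters are TGATGNAA. Read on both strands, these letters were in 3.97% of all promoters, 2.39% of those of genes tested and 2.15% of those of genes at least 2-fold higher. Among called higher members, 5 of 16 promoters of tRNA synthetases, 2 of 13 of serine and one-carbon genes and 3 of 10 of ATF4 regulators held them. Stretches of Slc7a11 and Chac1 are shown because both genes rose and hold the letters upstream of their start. They lie at chr3:50443614-50443719 on the minus strand and chr2:119351009-119351096 on the plus strand. Capitals mark the letters or their reverse complement, in 2 places in Slc7a11.
Slc7a11: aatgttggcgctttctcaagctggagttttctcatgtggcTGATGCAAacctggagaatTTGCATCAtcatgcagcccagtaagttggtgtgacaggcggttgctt
Chac1: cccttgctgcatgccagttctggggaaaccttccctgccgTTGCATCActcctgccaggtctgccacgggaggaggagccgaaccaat
The letters nearest the start end 40 bases before it in Slc7a11 and 186 bases before it in Chac1.

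Chaperones of the endoplasmic reticulum, which rise when unfolded proteins gather there, were lower in 9 of 19 cases and higher in 2, with a median of -0.23. Xbp1, a transcription factor of that response, had relative signals of 29.2 and 31.6 at 0 h and 22.3 and 22.4 at 24 h (-0.44 ± 0.08, adjusted p = 0.00868), and the disulfide isomerase genes Pdia6 and Pdia4 fell by 0.36 ± 0.08 and 0.36 ± 0.06. Dnajc3 fell by 0.42 ± 0.07. Ero1a, which oxidises the isomerases, had 0.583 and 0.600 at 0 h and 1.06 and 1.16 at 24 h (0.91 ± 0.08, adjusted p = 0.000617). Under median scaling only 1 member was lower. Xbp1 lost its call without the filter on dim probes. Pdia6 lost its call under median scaling, without the filter on dim probes, with only the 4 arrays in the fit and without 0 h replicate 1 or 24 h replicate 2. Pdia4 and Dnajc3 lost their calls under median scaling and without the filter on dim probes.

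Ribosome biogenesis genes, which process ribosomal RNA and assemble subunits in the nucleolus, were higher in 28 of 30 cases and lower in none, with a median of 0.70. Gnl3 (nucleostemin) had relative signals of 2.48 and 2.32 at 0 h and 5.46 and 5.29 at 24 h (1.16 ± 0.05, adjusted p = 0.000153), and the RNA helicase gene Ddx21 had 3.52 and 3.71 at 0 h and 7.11 and 7.36 at 24 h (1.0 ± 0.05, adjusted p = 0.000186). Rrp9, of the processome of small subunit RNA, had 0.793 and 0.807 at 0 h and 2.04 and 1.98 at 24 h (1.33 ± 0.07, adjusted p = 0.00018). Rrp12 and Heatr1 rose by 1.28 ± 0.12 and 0.94 ± 0.07. In each of these genes both 24 h arrays lay above both 0 h arrays. Proteasome subunits were higher in 23 of 33 cases and lower in none, with a smaller median of 0.24. Psmd12 had 48.1 and 49.2 at 0 h and 69.6 and 70.0 at 24 h (0.52 ± 0.04, adjusted p = 0.000658) and Psmd14, the deubiquitinase of the lid, 6.62 and 6.11 at 0 h and 10.6 and 10.1 at 24 h (0.70 ± 0.08, adjusted p = 0.0014). Psmd8, Psmb7 and Psmc5 rose by 0.53 ± 0.05, 0.43 ± 0.08 and 0.64 ± 0.17. With only the 4 arrays in the fit 13 proteasome genes were higher, and without the filter on dim probes 6. Psmb7 lost its call without the filter on dim probes. Psmc5 lost its call without the filter on dim probes, with only the 4 arrays in the fit and without either 24 h array.

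Oxidative phosphorylation genes were higher in 5 of 36 cases (13.9%) and lower in none, a share below that of all genes tested. Cyc1 (cytochrome c1) had relative signals of 43.4 and 43.4 at 0 h and 60.5 and 58.4 at 24 h (0.45 ± 0.06, adjusted p = 0.00214), and Uqcrq, Ndufa10, Uqcrfs1 and Cox5a rose by 0.28, 0.25, 0.20 and 0.19. The count and direction rested on scaling, with 13 higher and none lower under median scaling and 2 higher and 5 lower under quantile normalization. The 75th percentile of spots above background gave 3 higher and 5 lower, and normexp gave 3 higher and 3 lower. The higher members numbered 2 without 0 h replicate 1 and 3 without 0 h replicate 2. Uqcrq lost its call without the filter on dim probes. Ndufa10 lost its call under quantile normalization, without the filter on dim probes, with only the 4 arrays in the fit and without 0 h replicate 1. Uqcrfs1 lost its call under quantile normalization, with the 75th percentile of spots above background, with normexp, without the filter on dim probes, with only the 4 arrays in the fit and without either 0 h array, either 6 h array, 24 h replicate 2 or either 72 h array. Cox5a lost its call under quantile normalization, with the 75th percentile of spots above background, with normexp, without the filter on dim probes, with only the 4 arrays in the fit and without either 0 h array or either 24 h array.

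Cholesterol and fatty acid synthesis genes were higher in 9 of 33 cases (27.3%, against 21.3% over all genes tested) and lower in 4. Msmo1, an enzyme of cholesterol synthesis, had relative signals of 10.9 and 11.6 at 0 h and 17.6 and 19.0 at 24 h (0.70 ± 0.07, adjusted p = 0.000928). Hsd17b7 and Insig1 rose by 0.81 ± 0.07 and 0.81 ± 0.12, and the desaturase gene Fads2 fell by 0.85 ± 0.07. Under median scaling 17 members were higher. Metallothioneins and antioxidant genes were higher in 12 of 25 cases and lower in 4. The metal-binding Mt1 and Mt2, near-identical in part, had 67.4 and 72.3 at 0 h and 144 and 159 at 24 h (1.12 ± 0.07, adjusted p = 0.000325) and 22.6 and 25.9 at 0 h and 50.3 and 65.4 at 24 h (1.24 ± 0.13, adjusted p = 0.00133). Nqo1, an Nrf2 target, rose by 0.76 ± 0.07 (0.31 with normexp). The glutathione transferase genes Gstm1 and Gsta4, whose families hold close copies, fell by 0.79 ± 0.08 and 0.77 ± 0.09.

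Adipogenic and retinoid genes were lower in 9 of 18 cases and higher in 4 (22.2%, against 21.3% over all genes tested). Stra6, the receptor that takes up retinol, had relative signals of 2.25 and 2.44 at 0 h and 0.475 and 0.367 at 24 h (-2.49 ± 0.13, adjusted p = 0.000198). Rdh10, which oxidises retinol to retinal and is not in that list, had 3.64 and 3.66 at 0 h and 0.713 and 0.486 at 24 h (-2.63 ± 0.17, adjusted p = 0.000335). Aldh1a2, which makes retinoic acid, was at least 3.77-fold lower (adjusted p = 0.000391), and Aldh1a7 fell by 1.14 ± 0.09. Each of these genes was lower on both 24 h arrays. Fabp4, a fatty acid carrier of adipocytes and macrophages, rose, with 0.461 and 0.427 at 0 h and 1.40 and 1.84 at 24 h (1.85 ± 0.13, adjusted p = 0.000398). The higher members numbered 2 without 0 h replicate 1, without 0 h replicate 2 and without 24 h replicate 2. Normexp gave -0.66 for Aldh1a2.

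Cell cycle genes changed by small amounts. Mitosis genes were higher in 12 of 25 cases and lower in none, with a median of 0.21. Plk1, a mitotic kinase, had relative signals of 24.0 and 23.8 at 0 h and 31.1 and 32.3 at 24 h (0.41 ± 0.05, adjusted p = 0.00172) and the checkpoint kinase gene Bub1 had 4.06 and 4.24 at 0 h and 5.29 and 5.91 at 24 h (0.43 ± 0.07, adjusted p = 0.00465). Aurka and Cdk1 rose by 0.30 ± 0.05 and 0.25 ± 0.05, and Tpx2 by 0.37 ± 0.05 with a second probe at -0.15. The higher members numbered 5 without 0 h replicate 2, 4 with only the 4 arrays in the fit and 3 without the filter. DNA replication genes were higher in 6 of 26 cases (23.1%, against 21.3% over all genes tested) and lower in 3. Mcm10 had 7.40 and 7.31 at 0 h and 10 and 9.77 at 24 h (0.43 ± 0.04, adjusted p = 0.00121), Cdc45 and Mcm3 rose by 0.36 ± 0.08 and 0.22 ± 0.05, and Tyms fell by 0.35 ± 0.09. Cdc6, a licensing factor, fell by 0.63 ± 0.07 on its brightest probe, with a second probe at 0.07. Leaving out any 1 array of 0 h, 6 h or 24 h took the 6 higher members to between 1 and 3, and quantile normalization to 3. The 3 lower members came to 1 under median scaling, without 0 h replicate 1 and without 24 h replicate 2, and to 5 under quantile normalization. Aurka lost its call without the filter on dim probes. Cdk1 lost its call without the filter on dim probes, with only the 4 arrays in the fit and without 0 h replicate 2. Tpx2 lost its call with the mean over its probes. Cdc45 lost its call without the filter on dim probes and without 0 h replicate 2 or either 24 h array. Mcm3 lost its call without the filter on dim probes, with only the 4 arrays in the fit and without either 0 h array or 24 h replicate 2. Tyms lost its call under median scaling, without the filter on dim probes and without either 0 h array or 24 h replicate 2.

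Among G1 cyclins and inhibitors of cyclin-dependent kinases, 4 of 20 were higher and 5 lower, shares close to those of all genes. Ccnd1 and Ccnd2, the D-type cyclins that growth factors raise, had relative signals of 14.4 and 14.4 at 0 h and 23.2 and 21.0 at 24 h (0.62 ± 0.06, adjusted p = 0.00117) and 25.4 and 25.5 at 0 h and 46.4 and 46.1 at 24 h (0.86 ± 0.04, adjusted p = 0.000168). Cdkn1a (p21) had 0.282 and 0.310 at 0 h and 0.870 and 0.914 at 24 h (1.59 ± 0.06, adjusted p = 0.000106). Cdkn1c and Cdkn2c fell by 0.62 ± 0.07 and 0.70 ± 0.08. Ccnd1, Ccnd2 and Cdkn1a, named because they were called, each stood higher on both 24 h arrays. The median of the list, 0.02, changed sign in 5 settings, and under median scaling 3 members were lower. p53 targets were higher in 11 of 20 cases and lower in 5. The polo-like kinase genes Plk3 and Plk2 had 1.47 and 1.56 at 0 h and 3.78 and 4.43 at 24 h (1.43 ± 0.09, adjusted p = 0.000266) and 2.59 and 2.62 at 0 h and 5.98 and 6.98 at 24 h (1.31 ± 0.09, adjusted p = 0.000334). Sesn1 (sestrin) and Trp53inp1 fell by 1.45 ± 0.07 and 1.45 ± 0.08, and the nuclease gene Aen rose by 0.97 ± 0.06.

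Bcl2 family genes were higher in 7 of 16 cases and lower in 3. Bok and Bid, which promote cell death, had relative signals of 5.09 and 5.41 at 0 h and 12.1 and 14.7 at 24 h (1.34 ± 0.13, adjusted p = 0.000947) and 1.51 and 1.40 at 0 h and 2.71 and 2.54 at 24 h (0.85 ± 0.06, adjusted p = 0.000395). Bnip3, a mitophagy receptor, had 19.1 and 20.7 at 0 h and 38.5 and 44.1 at 24 h (1.05 ± 0.08, adjusted p = 0.000494). Bik rose by 1.54 ± 0.18, and Bmf, a death-promoting member tied to the cytoskeleton, fell by 1.08 ± 0.07. Death-promoting members thus moved both ways. Of the 0 h arrays, 1 had Bik well above background. With normexp background correction the difference was 0.48 for Bik.

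Mesenchymal transition factors and homeobox genes were higher in 13 of 31 cases and lower in 7 (22.6%, against 20.3% over all genes tested). Sox9, a factor of cartilage and progenitor cells, had relative signals of 0.101 and 0.108 at 0 h and 0.997 and 0.921 at 24 h (3.20 ± 0.08, adjusted p = 3.38e-05), by far the largest difference in the list. Zeb2 and Twist2, which repress epithelial genes, had 0.909 and 0.934 at 0 h and 1.5 and 1.65 at 24 h (0.77 ± 0.07, adjusted p = 0.000705) and 1.16 and 1.20 at 0 h and 2.05 and 2.0 at 24 h (0.78 ± 0.06, adjusted p = 0.000491), and Twist1 rose by 0.47 ± 0.05. Tbx18 and Tbx2 fell by 0.82 ± 0.08 and 1.99 ± 0.55, and the Tbx2 difference was -2.88 without 24 h replicate 1 and -1.1 without 24 h replicate 2. The lower members numbered 3 under median scaling and 4 without 0 h replicate 1. Among epithelial markers, the keratin genes Krt8 and Krt18 rose by 0.68 ± 0.11 and 0.51 ± 0.10, Grhl2 rose by 0.99 ± 0.09, and Krt14 fell by 1.33 ± 0.14. On 1 of the 24 h arrays Tbx2 did not stand well above background. Only 1 of the 0 h arrays had Grhl2 well above background. Tbx2 lost its call without the filter on dim probes, with only the 4 arrays in the fit and without either 0 h array, either 6 h array or either 72 h array. Krt18 lost its call without the filter on dim probes. By normexp the differences were 2.05 for Sox9, -0.55 for Tbx2 and 0.24 for Grhl2.

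Circadian clock genes were higher in 8 of 15 cases and lower in 2. Bhlhe40 (Dec1), a repressor of clock genes, had relative signals of 1.55 and 1.58 at 0 h and 4.87 and 5.26 at 24 h (1.69 ± 0.05, adjusted p = 5.77e-05), Ciart had 0.104 and 0.0989 at 0 h and 0.230 and 0.264 at 24 h (1.28 ± 0.09, adjusted p = 0.000402) and Nr1d1 (Rev-erb alpha) had 0.133 and 0.150 at 0 h and 0.246 and 0.252 at 24 h (0.82 ± 0.09, adjusted p = 0.00138). Bhlhe41, with 24 h arrays at 0.170 and 0.0565, was at least 2.78-fold higher (adjusted p = 0.027), and Rora rose by 0.54 ± 0.06. The 24 h arrays lay above the 0 h arrays in each of these genes. Potassium channel genes were lower in 6 of 14 cases and higher in 1. Beside Kcns3, the inward rectifier gene Kcnj8 was at least 1.69-fold lower (adjusted p = 0.00781), and Kcnmb4 and Kcnk6 fell by 0.77 ± 0.06 and 0.66 ± 0.08. The calcium-activated channel gene Kcnn4 rose instead, with 0.177 and 0.122 at 0 h and 0.469 and 0.515 at 24 h (1.74 ± 0.19, adjusted p = 0.00134). Bhlhe41 lost its call without the filter on dim probes and without either 0 h array or 24 h replicate 1. The normexp correction gave 0.62 for Ciart, 0.40 for Nr1d1, 0.58 for Bhlhe41, 0.27 for Rora, -0.23 for Kcnk6 and 1.07 for Kcnn4.

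Single markers of blood cells and endothelium changed as well. Csf1r, the receptor of macrophage colony-stimulating factor, rose by 0.81 ± 0.08, with other probes of the gene between -0.17 and 0.76. Cd14 rose by 0.30 ± 0.09, Cd68 was at least 1.43-fold higher (adjusted p = 0.000974), and the endothelial receptor gene Tek was at least 2.43-fold lower (adjusted p = 0.0153). In the prolactin family, 2 of 6 tested genes were higher, the 2 proliferins, and 1 lower, the placental lactogen gene Prl3b1, which fell by 0.36 ± 0.07. Cd14 lost its call with the 75th percentile of spots above background, without the filter on dim probes, with only the 4 arrays in the fit, with the replicate block and without either 0 h array, either 6 h array, 24 h replicate 2 or either 72 h array. Tek lost its call without the filter on dim probes, with only the 4 arrays in the fit and without 0 h replicate 1. Prl3b1 lost its call under median scaling, without the filter on dim probes and without 0 h replicate 1 or 24 h replicate 1. With normexp background correction the difference was -0.44 for Tek.

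The 24 h level was placed in time with the differences from 6 h and to 72 h of the same fit. From 6 h to 24 h, 12% of all genes rose and 13.1% fell, and from 24 h to 72 h 10.2% rose and 10.6% fell. These steps share the 24 h arrays with the comparison above, so a gene's values stand side by side and are no second line of evidence. Most AP-1 and early response factors had come down from their 6 h level, with 14 of 21 falling and 1 rising from 6 h to 24 h. Egr2 changed by -1.60 ± 0.08 (adjusted p = 0.000577) from 6 h to 24 h and by -1.69 ± 0.08 (adjusted p = 0.00108) from 24 h to 72 h, and Egr1 by -1.61 ± 0.17 (adjusted p = 0.0031) from 6 h to 24 h. Fosl1 passed neither test, with 2.52 and 2.57 at 6 h, 2.70 and 2.85 at 24 h and 2.76 and 2.62 at 72 h.

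The stromelysins, osteopontin and the proliferin Prl2c5 were highest at 24 h among the 4 times. Mmp10 moved by 1.36 ± 0.11 (adjusted p = 0.00177) between 6 h and 24 h and by -1.95 ± 0.11 (adjusted p = 0.00156) between 24 h and 72 h, and Mmp3 by 1.54 ± 0.07 (adjusted p = 0.000425) and -1.82 ± 0.07 (adjusted p = 0.000912). Spp1 went from 15.6 and 16.3 at 6 h to 70.2 and 70.7 at 24 h and 38.9 and 37.0 at 72 h. Prl2c5 reached 0.612 and 0.634 at 6 h and changed by 3.88 ± 0.08 (adjusted p = 0.000106) from there to 24 h and by -0.43 ± 0.08 (adjusted p = 0.0207) to 72 h. Vcam1 fell back to 5.09 and 5.55 at 72 h, a change of -1.90 ± 0.07 (adjusted p = 0.000912). Of the 34 proteases and inhibitors, 9 rose and 11 fell from 6 h to 24 h, and 5 rose and 14 fell from 24 h to 72 h. Clu stood at 20.6 and 20.7 at 6 h and 12.2 and 13.4 at 72 h, so it too was highest at 24 h, and the change to 72 h was -1.17 ± 0.08 (adjusted p = 0.00231).

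Several genes of serine and one-carbon synthesis and of the ATF4 pathway rose further. Of 17 genes of serine and one-carbon synthesis, 12 rose from 6 h to 24 h and 12 from 24 h to 72 h. Of 17 ATF4 regulators, 5 and 10 rose in these intervals, and 2 fell in each. Of 17 amino acid transporters, 3 rose and 1 fell from 6 h to 24 h, and 4 rose and 4 fell from 24 h to 72 h. Ddit3 stood at 3.90 and 3.70 at 6 h and 11.6 and 12.2 at 72 h, steps of 0.54 ± 0.08 (adjusted p = 0.00844) and 1.1 ± 0.08 (adjusted p = 0.00264). Trib3 went on to 41.8 and 41.9 at 72 h, a step of 0.76 ± 0.10 (adjusted p = 0.00871). Ribosome biogenesis genes made their step by 24 h, with 24 of 30 rising from 6 h to 24 h, and 1 rising and 3 falling from there to 72 h. Of the 29 tRNA synthetases, 19 were higher than at 6 h. Mitosis genes took a step in the same interval, with 19 of 25 rising and none falling from 6 h to 24 h, and 2 falling from there to 72 h. Among 15 clock genes, 7 rose and none fell from 24 h to 72 h.

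Several of the genes that were lower at 24 h than at 0 h were lower still at 72 h. Txnip stood at 4.51 and 4.15 at 6 h and 0.445 and 0.376 at 72 h, with steps of -1.29 ± 0.15 (adjusted p = 0.00429) and -2.11 ± 0.15 (adjusted p = 0.00245). Stra6 stood at 1.96 and 2.13 at 6 h and 0.189 and 0.179 at 72 h, with a step from 24 h of -1.18 ± 0.13 (adjusted p = 0.00539). Col3a1 was at 77.9 and 74.5 at 6 h, and the step to 24 h was -1.01 ± 0.06 (adjusted p = 0.000867). Of 24 collagen chains, 13 fell and 2 rose from 6 h to 24 h, and 7 fell and 2 rose from 24 h to 72 h. Complement (9 of 13), interferon response (16 of 32), Wnt (14 of 32) and TGF-beta (14 of 32) members fell from 6 h to 24 h. From 24 h to 72 h the interferon list no longer leaned one way, with 4 higher and 4 lower. Lamb2 was past its lowest level, with 4.17 and 4.37 at 72 h and a step of 0.42 ± 0.05 (adjusted p = 0.0063).

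**Figure D5:**
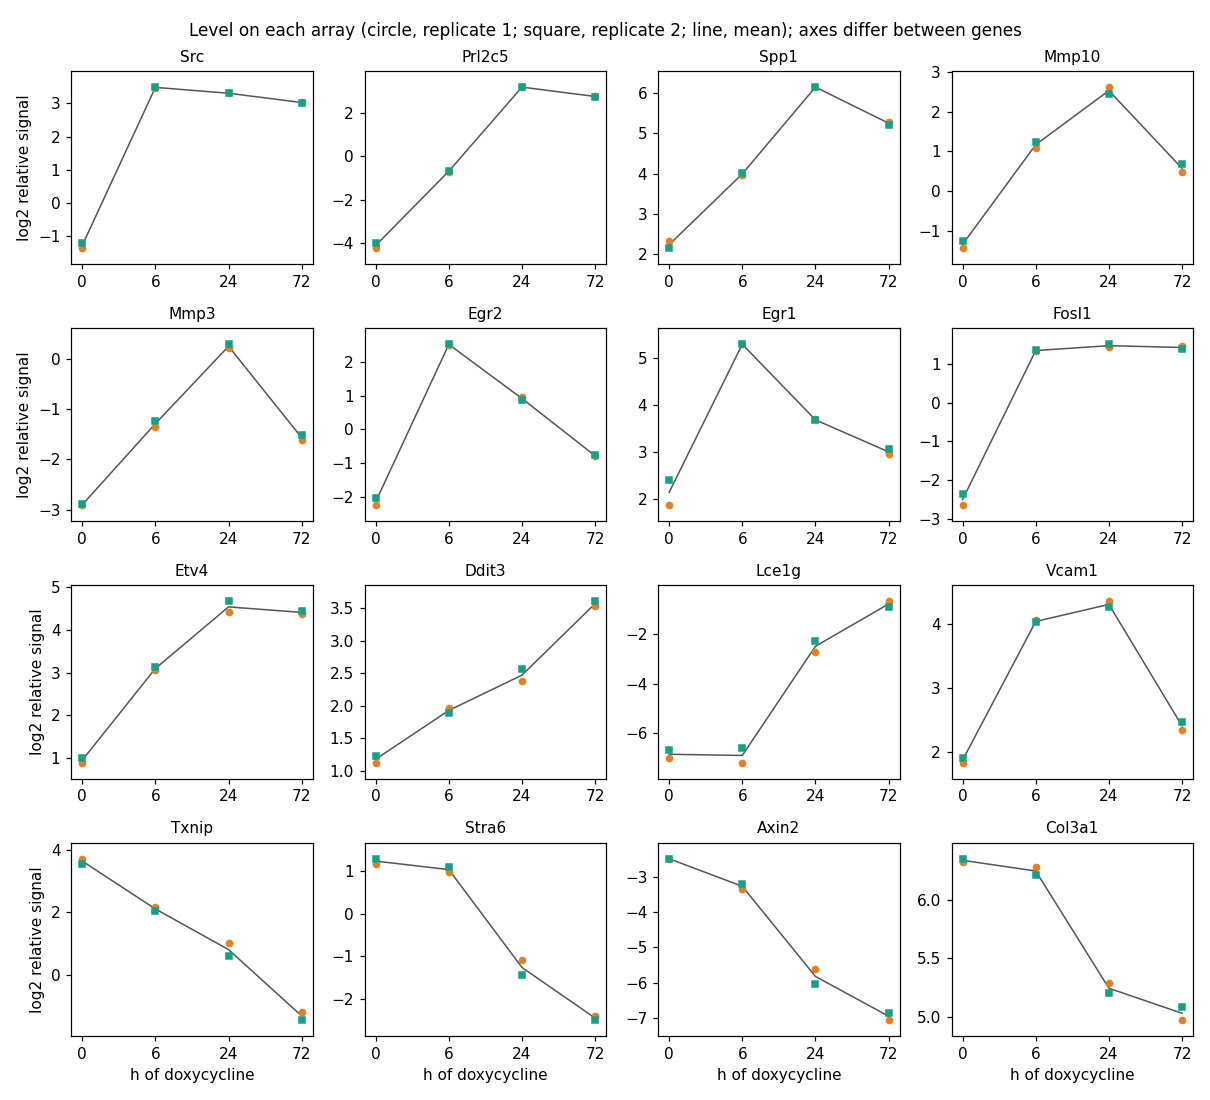
Log2 relative signal of 16 genes on each of the 8 arrays against hours of doxycycline (0, 6, 24 and 72 h, evenly spaced), with circles for replicate 1, squares for replicate 2 and a line through the means; the y axis differs between genes. Egr1 and Egr2 are highest at 6 h, Mmp3, Mmp10 and Spp1 at 24 h and Ddit3 and Lce1g at 72 h, while the means of Txnip, Stra6 and Axin2 are lower at each later time.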

How the data were processed

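The 8 arrays (Agilent 1-colour mouse arrays) sit on 1 slide and were scanned together. Times follow the slide's rows and replicate numbers its columns. Per the file headers, the deposited intensity values of each spot were made by Agilent Feature Extraction 10.5.1.1, which subtracted background and detrended within the array; version 10.7.3.1 stands in the submitters' processing notes. The authors' deposited value table gives these intensity values after rounding. The 75th percentiles of the arrays lay between 370.3 and 393, 49.9% to 54.7% of spots were well above background, and no spot was saturated. Replicates correlated at 0.9963 to 0.9974 over log2 values.

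Processed signals of the 55681 probes that are not controls were divided by each array's 75th percentile and taken to log2, leaving out outlier spots. A probe was tested where it was well above background on both arrays of 0 h or of 24 h, and a gene was represented by its brightest tested probe. limma 3.58.1 in R 4.3.3 was fitted on all 8 arrays with 1 mean per time and no block (4 residual degrees of freedom, prior 1.77). The p-values were adjusted over all probes tested. The fit was tested on simulated data first. Probe names come from RefSeq accessions (26582 probes), symbols (2602) or synonyms (492), and otherwise from the file. Promoter sequences are those of RefSeq for GRCm38.p6, and coordinates of probes are those of the files, in mm9. Alternatives covered scaling, normexp background correction (offset 50), filters, the arrays in the fit, a replicate block and each array left out.

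The members and lists were chosen with earlier results of these data known. The rule for named genes takes in Src with Csk and Fer, the 20 genes that rose most and the 20 that fell most among genes above background on both arrays of both times, the 10 largest bounds each way, and up to 5 called members of a list; some of these genes are not reported here. Where a fit lacks an outlier spot, 12 probes have a missing array, and no named gene is among them.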

Additional observations from a re-analysis of the deposited data

How the results depend on the processing

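Of 284 genes that the naming rule takes in, 243 kept their call in each setting that tested them (20 or 21 of them), 41 lost it in at least 1, and none changed direction. Most losses came without the filter on dim probes (35), without 0 h replicate 1 (17) or 2 (15), and with only the 4 arrays in the fit (14). Median scaling gave 2019 lower genes, testing without the filter gave 2189 higher and 1999 lower, and an adjusted p under 0.01 gave 2759 higher and 2354 lower. Leaving out 1 array gave between 3259 and 3966 higher and between 2959 and 3724 lower genes. With only the 4 arrays in the fit, 3088 were higher and 3004 lower. Leaving out either array of 6 h or of 72 h gives the same estimate by construction. Same-numbered arrays deviated together with correlations of 0.065 to 0.162 over 27869 probes, positive in each pair of times but over 0.1 in only 3 of 6, so the numbers were not taken to pair the arrays. The fit with the replicate number as a block gave 4609 higher and 4372 lower genes. The median of 41 of 54 lists kept its sign in each setting. With normexp, 258 of the 284 differences and 45 of the 54 list medians lay nearer 0. Without the filter, 36095 genes were tested in place of 20421, and some list counts were smaller, as for ERK feedback (13 higher in place of 20) and metallothioneins and antioxidant genes (7 in place of 12); the cause was not tested. Only 2 arrays per time, on 1 slide, stand behind each value.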
